A study of Saccharomyces cerevisiae with 14 samples.

Results

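The a-specific mating genes are the genes that budding yeast transcribes when its mating type is a and not when it is alpha. The 7 genes described here, MFA1, MFA2, STE2, STE6, BAR1, AGA2 and ASG7, were chosen by name from the deposited expression table. All 7 were found, among 6598 genes, and each had a value in all 6 conditions. RNA came from Saccharomyces cerevisiae W303, wild type or with RPD3 deleted, at 3 harvests each. Log cells were taken during growth at an OD600 of 0.4 to 0.6, DS (diauxic shift) cells 2 hours after the medium's glucose was exhausted, and Q (quiescent) cells by Percoll gradient from cultures grown for 7 days. RPD3 encodes a histone deacetylase, and the mutant lacks it at every harvest. There were 14 libraries from 2 isolates per genotype and harvest. Wild-type log cells had 4 libraries, because each isolate was prepared with 0.2 and with 1 equivalents of the ERCC spike-in RNA.

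The table has 1 value per condition, so no difference below could be compared with a spread between isolates, and none was tested. Read depth is unknown, and no counting interval or detection limit could be given. "Higher" and "lower" describe single deposited values. Levels are in FPKM (fragments per kilobase of transcript and per unit of sequencing depth), which the authors rescaled so that a value reflects the RNA content of a cell. Since FPKM is per length, levels are compared between genes. The comparison is less certain for MFA1 and MFA2, the shortest members, as the treatment of short transcripts is not stated. A change is a difference of log2(FPKM + 1) on that per-cell scale unless another scale is named, and genes changed by at least 2-fold are counted. Fewer cells with a transcript and less of it in each cell cannot be told apart in such bulk RNA. The scale itself moves most genes: the median gene stood at 38.0 FPKM in wild-type log, 20.1 in wild-type DS and 1.37 in wild-type Q cells, and at 50.2, 33.9 and 19.0 FPKM in the mutant at the same harvests. RPD3 checked the labels, with 70.8, 37.7 and 2.35 FPKM in wild-type log, DS and Q cells, no value in mutant log cells, and 0.941 and 0.0279 FPKM in mutant DS and Q cells.

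Haploid yeast of mating type a signals to a partner of type alpha with a-factor, a short farnesylated peptide, and senses the partner through a receptor for alpha-factor. In a cells the a-specific genes are switched on by the MADS-box protein Mcm1. In alpha cells and in diploids the alpha2 protein binds beside Mcm1 at the same sites and, with the Tup1-Cyc8 corepressor, shuts them off. MFA1 and MFA2 encode the precursors of a-factor, and STE6 encodes the ABC transporter that exports it. STE2 encodes the alpha-factor receptor, and BAR1 a secreted protease that degrades alpha-factor. AGA2 encodes the adhesive subunit of a-agglutinin, and ASG7 a protein that restrains pheromone signalling in zygotes.

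The binding sites that define the group are shown because they are the feature its members share. In the R64 reference genome of strain S288C, the 300 bases before each start codon were searched on both strands for the operator layout. It consists of CATGT, 5 free bases, CC, 6 free bases, GG, 6 free bases and ACATG. The outer blocks are the alpha2 half-sites and the CC and GG belong to the Mcm1 site. In BAR1 and AGA2 the spacing before ACATG was 1 base shorter, and this 30-base form was added after the first matches had been seen. Capitals mark the letters that match the fixed letters of the layout, and each line runs 5′ to 3′.
MFA1: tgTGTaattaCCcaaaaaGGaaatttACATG
MFA2: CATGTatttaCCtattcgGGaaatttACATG
STE2: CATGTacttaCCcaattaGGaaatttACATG
STE6: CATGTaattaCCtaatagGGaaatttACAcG
BAR1: CATGTaattaCCgtaaaaGGaaattACATG
AGA2: CATGTaatttCCgaatacGGtaattACAcG
ASG7: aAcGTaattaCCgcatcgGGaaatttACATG

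In R64 these matches lie at chrIV:1384942-1384972 (plus strand) for MFA1, chrXIV:352163-352193 (plus strand) for MFA2, and chrVI:82351-82381 (minus strand, opposite to the gene) for STE2. Those of STE6, BAR1, AGA2 and ASG7 lie at chrXI:46477-46507 (minus strand), chrIX:322078-322107 (plus strand), chrVII:437102-437131 (minus strand) and chrX:101905-101935 (minus strand). None overlaps an annotated coding sequence. The match begins 298 bases before the start codon in AGA2, 264 in BAR1, 251 in MFA2, 234 in MFA1, 229 in STE2, 212 in STE6 and 156 in ASG7. MFA2, STE2 and BAR1 match all 14 fixed letters, STE6 and AGA2 match 13, and MFA1 and ASG7 match 12. Of 6001 promoters searched, 15 (0.25%) reached 12 letters with either spacing, and 7 of these 15 are the members. The layout is known from promoters of this group, so the matches describe the members and were not an independent finding. The pheromone response element TGAAACA, on either strand, was in 5 of the 7 members' windows and in 7.2% of all windows. MFA1 and ASG7 had none in the 300 bases. Reference sequence was used, and the promoters of the W303 strain were not read.

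**Figure D1:**
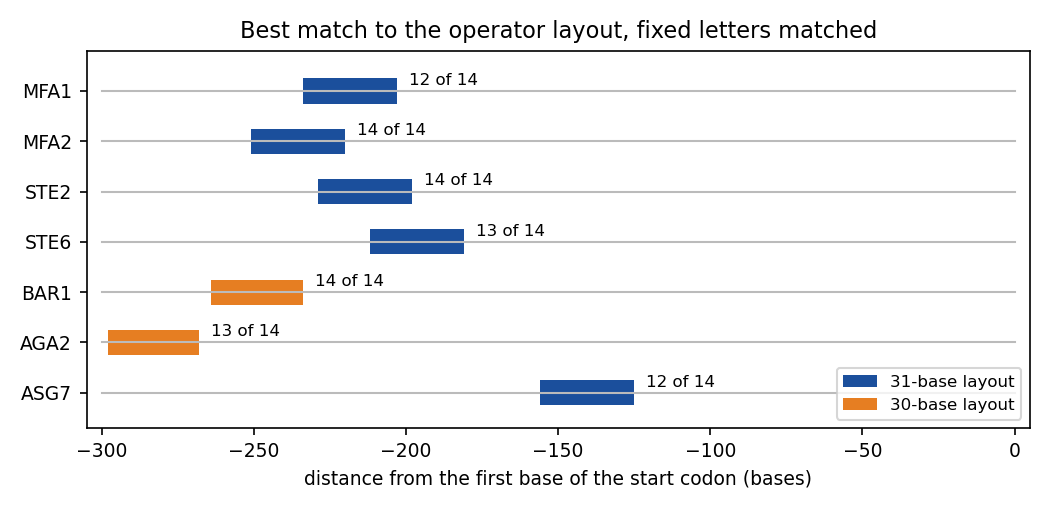
Best match to the operator layout in the 300 bases before each start codon of the 7 members (x axis, bases from the start codon), with the number of its 14 fixed letters matched. Blue bars are the 31-base form and orange bars the 30-base form; ASG7 has the match nearest to the start codon, beginning 156 bases before it, and AGA2 the farthest, at 298.

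The stretch around the operator is given for MFA1, the member lowest relative to wild type in mutant log cells, and for AGA2, the member highest relative to wild type there. Both run from 300 to 151 bases before the start codon on the gene's strand (chrIV:1384876-1385025, plus strand, and chrVII:436984-437133, minus strand, in R64), with the operator in capitals.
MFA1: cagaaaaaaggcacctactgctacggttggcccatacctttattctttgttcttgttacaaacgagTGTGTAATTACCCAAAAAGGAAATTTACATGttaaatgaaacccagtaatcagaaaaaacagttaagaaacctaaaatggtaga
AGA2: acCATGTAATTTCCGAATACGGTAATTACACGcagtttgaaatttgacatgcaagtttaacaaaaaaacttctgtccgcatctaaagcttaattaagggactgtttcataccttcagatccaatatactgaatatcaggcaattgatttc

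The a-factor genes are also shown as coding sequences, since their shortness and likeness bear on how their reads can be assigned. In R64 MFA1 spans 111 coding bases (chrIV:1385176-1385286, plus strand) and MFA2 117 (chrXIV:352414-352530, plus strand). Aligned end to end they are identical at 88 of 121 aligned columns (72.7%). Capitals mark their longest shared run, which has 11 bases.
MFA1: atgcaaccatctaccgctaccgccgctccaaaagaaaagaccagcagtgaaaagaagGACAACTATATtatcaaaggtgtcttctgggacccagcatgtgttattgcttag
MFA2: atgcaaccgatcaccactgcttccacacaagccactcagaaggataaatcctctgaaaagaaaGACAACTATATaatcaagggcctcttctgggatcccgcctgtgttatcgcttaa

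No member overlaps another annotated coding gene in R64. The other coding lengths are 264 bases for AGA2, 630 for ASG7, 1296 for STE2, 1764 for BAR1 and 3873 for STE6. FPKM divides by length, and how the authors treated transcripts as short as those of the a-factor genes is not stated in the labels.

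The labels do not state the mating type, so it was checked on marker genes. All 7 a-specific genes had at least 14.8 FPKM in wild-type log cells. Of the defining genes of alpha cells, STE3, the a-factor receptor gene, ranged from 0.138 to 1.54 FPKM over the 6 conditions. MF(ALPHA)1, the main alpha-factor gene, ranged from 0.123 to 1.62 FPKM over 5 conditions and had no value in mutant log cells. MF(ALPHA)2 reached 12.1 FPKM in mutant DS cells, and YLR040C (AFB1) reached 10.1 FPKM in wild-type log cells. SAG1, the alpha-agglutinin gene, had 12.1 FPKM in wild-type log, 19.3 in mutant log and 33.1 in mutant Q cells. The 5 alpha-specific genes summed to 35.0, 23.0 and 2.76 FPKM in wild-type log, DS and Q cells, and to 29.4 (4 genes with a value), 33.4 and 47.3 FPKM in the mutant. MATALPHA1 and HMLALPHA1, which share sequence, had at most 0.541 and 0.466 FPKM. MATALPHA2 was higher, at 13.6 FPKM in wild-type log, 19.3 in wild-type DS and 11.8 in mutant DS cells, with no other value. HMLALPHA2 (13.8 FPKM) and HMRA2 (15.8 FPKM) were near it in wild-type log cells. MATALPHA2, HMLALPHA2 and HMRA2 share sequence, so their values are uncertain. HMRA1, whose sequence is also that of the a1 gene of the a mating-type locus, was at 72.5 FPKM in log cells of both genotypes. The haploid-specific genes RME1, HO, STE5, STE4, GPA1 and FUS3 served as markers that are low in a/alpha diploids. In wild-type log cells they ran from 40.4 (HO) to 151 FPKM (STE4), all above the median gene at 38.0. Mutant log cells had 31.1 (STE5) to 117 FPKM (STE4), with only STE5 below the median gene at 50.2. In wild-type DS cells the range was 1.35 (HO) to 156 FPKM (RME1). In wild-type log cells every a-specific gene was above all 5 alpha-specific genes. In mutant log cells SAG1 (19.3 FPKM) was above ASG7 (18.9 FPKM) and the other alpha-specific genes with a value were below every member. In wild-type DS cells SAG1 (11.3 FPKM) was above BAR1 (8.90 FPKM). SAG1 (1.57 FPKM) was above every member but MFA1 in wild-type Q cells. STE3 (0.695 FPKM) and MF(ALPHA)2 (0.344 FPKM) were above some members there. SAG1 (19.7 FPKM) and MF(ALPHA)2 (12.1 FPKM) were above ASG7 and BAR1 in mutant DS cells. In mutant Q cells SAG1 was above all 7 members and MF(ALPHA)2 (10.6 FPKM) above ASG7 and BAR1.

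The levels in wild-type log cells set the a-factor genes and the receptor apart. MFA2 had 903 FPKM, MFA1 535 and STE2 362, which placed them at percentiles 96.1, 94.6 and 92.7 of all genes in that column. STE6 (111 FPKM) and BAR1 (109 FPKM) followed at percentiles 78.4 and 78.2. AGA2 had 47.6 FPKM and ASG7 14.8, the latter below the median gene. With 1 value each, the neighbours STE6 and BAR1 cannot be ordered. The places of MFA1 and MFA2 against longer genes also depend on how short transcripts were treated, which is not stated.

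As deposited, the a-factor genes were lower at each later harvest. In the mutant, MFA2 from log to DS and MFA1 from DS to Q were nearly level. With columns centred on the median gene these changes were 0.49 and 0.69. MFA1 stood at 535 FPKM in wild-type log, 62.2 in DS and 2.03 in Q cells, and at 53.1, 25.7 and 23.6 FPKM in mutant log, DS and Q cells. MFA2 stood at 903, 154 and 1.10 FPKM in wild type and at 144, 137 and 29.2 FPKM without Rpd3. As deposited, the mutant thus started lower than wild type and ended higher for both genes. Their ratio was not constant: MFA1 was 0.593 times MFA2 in wild-type log, 0.405 times in wild-type DS and 1.84 times in wild-type Q cells, and 0.368, 0.187 and 0.808 times in the mutant at the same harvests. The ratio within a column does not depend on the scale of that column. In wild-type Q cells it rests on single values of 2.03 and 1.10 FPKM at unknown depth, so the order of the pair there is uncertain.

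STE6, the a-factor exporter gene, was at 111, 18.1 and 0.273 FPKM in wild-type log, DS and Q cells and at 39.2, 19.9 and 13.9 in the mutant. Its DS values in the 2 genotypes lay closer together than those at the other harvests. STE2, the receptor gene, had 362, 22.8 and 0.781 FPKM with Rpd3 and 121, 33.2 and 11.4 FPKM without it. BAR1, the protease gene, had 109, 8.90 and 0.290 FPKM with Rpd3 and 24.6, 3.70 and 1.94 FPKM without it. BAR1 was the lowest member in mutant DS and Q cells, at percentiles 6.72 and 4.12 of all genes there.

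AGA2 and ASG7 had another course. AGA2, the agglutinin subunit gene, was at 47.6, 46.9 and 0.670 FPKM in wild-type log, DS and Q cells and at 85.6, 51.9 and 29.5 in the mutant. ASG7 had 14.8, 15.7 and 0.252 FPKM with Rpd3 and 18.9, 11.7 and 9.04 FPKM without it. At wild-type DS both were near their log level, where the other 5 members were lower. In mutant log cells both were above wild type, ASG7 only as deposited or with equal column sums and not with columns centred on the median gene. In mutant Q cells AGA2 (29.5 FPKM) and MFA2 (29.2 FPKM) were above the other members and cannot be ordered.

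**Figure D2:**
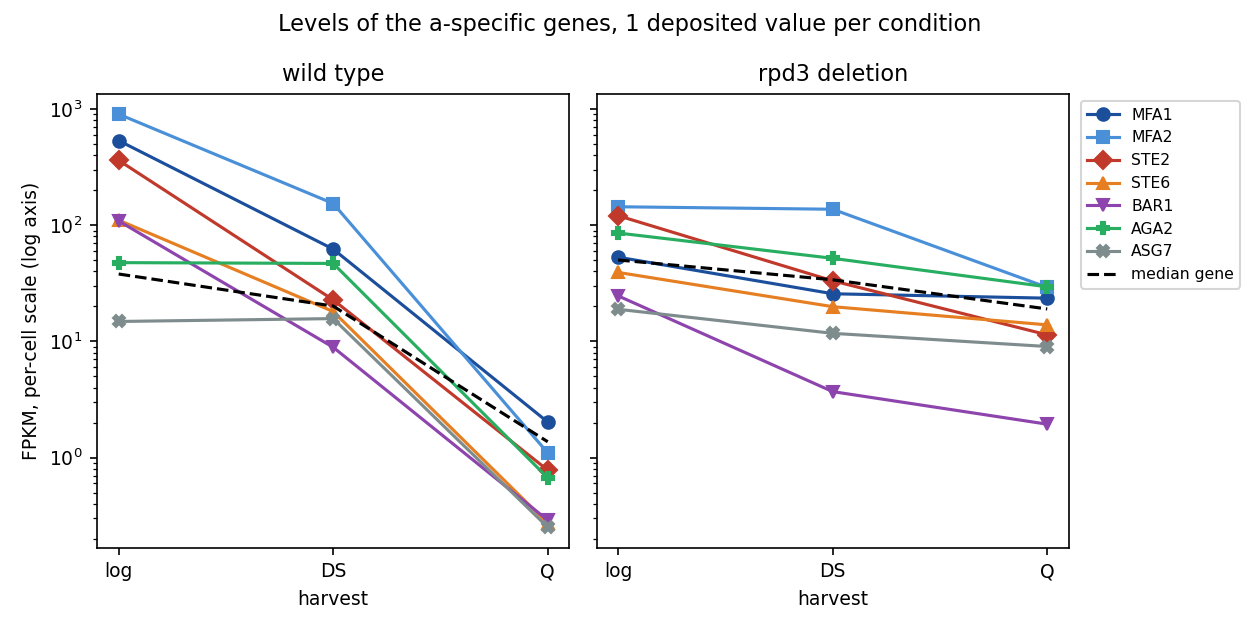
FPKM on the per-cell scale (log axis) of the 7 a-specific genes and of the median gene (dashed) in log, DS and Q cells of wild type (left) and the rpd3 deletion (right), 1 deposited value per condition and no error bars. In wild type the members run from between 14.8 and 903 FPKM in log cells to between 0.252 and 2.03 in Q cells; in mutant Q cells they stand between 1.94 and 29.5.

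Wild-type DS cells were set against log cells to see the state after glucose exhaustion. Of the 7 members 5 were at least 2-fold lower and none at least 2-fold higher; of all 6519 genes compared, 44.2% were at least 2-fold lower and 9.91% higher. The receptor gene differed most (STE2, -3.93), then BAR1 (-3.47), MFA1 (-3.08), STE6 (-2.55) and MFA2 (-2.55). AGA2 (-0.02) and ASG7 (0.08) were nearly level as deposited, at percentiles 76.6 and 78.8 of all changes, and were higher in DS cells with columns centred on the median gene (0.88 and 0.95). The median over the members was -2.55, against -0.85 over all genes. As plain FPKM ratios, STE2 was 15.9-fold lower, BAR1 12.2-fold and MFA1 8.59-fold.

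In wild-type Q cells all 7 members were at least 2-fold lower than in log cells, as were 93.2% of 6425 genes (1.84% were higher), so the count reads the same as the background. The sizes differed among the members. MFA2 differed by -8.75 (percentile 1.07 of all changes), STE2 by -7.67 (3.86), MFA1 by -7.47 (4.45), STE6 by -6.45 and BAR1 by -6.41. AGA2 differed by -4.86 and ASG7 by -3.66, the latter close to the median gene at -3.87. A pseudocount of 1 FPKM limits how far a gene as low in log cells as ASG7 can change. In plain FPKM MFA2 was 821-fold lower in Q than in log cells and ASG7 58.9-fold. With both columns centred on the median gene MFA2 differed by -4.84 and ASG7 by -0.99.

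From DS to Q cells of wild type all 7 members were again at least 2-fold lower, as were 94.6% of 6420 genes (0.171% were higher). MFA2 differed most (-6.20, percentile 2.10), and AGA2, nearly level from log to DS, differed by -4.84 (percentile 8.52). MFA1 differed by -4.39, STE6 by -3.91, ASG7 and STE2 by -3.74 each, and BAR1 by -2.94, next to the median gene at -2.90. BAR1, at 8.90 FPKM in DS cells, had little room left with this pseudocount. In plain FPKM the order differed: MFA2 was 140-fold lower, AGA2 69.9-fold, STE6 66.3-fold and ASG7 62.3-fold. MFA1 and BAR1 were each 30.7-fold lower and STE2 29.2-fold.

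During growth, 5 members were among the genes lowest in the mutant relative to wild type. Of the 7 members 5 were at least 2-fold lower in the mutant, while 3.38% of 6479 genes were lower and 10.2% higher. MFA1 differed by -3.31 and was the 9th lowest of all 6479 changes. MFA2 differed by -2.64 (31st lowest), BAR1 by -2.10 (54th), STE2 by -1.58 (106th) and STE6 by -1.47 (115th). These 5 genes, which make, export, sense or degrade the pheromones, were all within the lowest 1.78% of changes. AGA2 was higher in the mutant by 0.83 and ASG7 by 0.33 (-0.05 with centred columns), and neither reached 2-fold. The median over the members was -1.58 and over all genes 0.25. In plain FPKM the wild type exceeded the mutant 10.1-fold for MFA1, 6.26-fold for MFA2, 4.41-fold for BAR1 and 2.82-fold for STE6, with STE2 between the last pair. The other mating gene lists below give what else differed in the same cells. Whether the mutant log culture matched the wild type in growth or cell cycle was not tested.

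At DS fewer members differed by 2-fold between the genotypes as deposited. Of the 7, 2 were at least 2-fold lower in the mutant, MFA1 (-1.24) and BAR1 (-1.08), and none was at least 2-fold higher; over 6393 genes the shares were 3.61% lower and 31.3% higher. BAR1 no longer reached 2-fold with a pseudocount of 10 FPKM (-0.46). MFA2 differed by -0.16, although it had differed by -2.64 in log cells. STE2 (0.52), STE6 (0.13) and AGA2 (0.14) were slightly higher in the mutant as deposited, and lower with columns centred on the median gene (-0.20, -0.59 and -0.60). ASG7 differed by -0.39. With centred columns ASG7 (-1.11) joined MFA1 (-1.99) and BAR1 (-1.79), so that 3 members were at least 2-fold lower. As deposited the members' median was -0.16 and that of all genes 0.64.

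In Q cells all 7 members were at least 2-fold higher in the mutant, as were 94.5% of 6419 genes (0.343% were lower), so this count again reads as the background. AGA2 differed by 4.19 (percentile 92.7), MFA2 by 3.85, STE6 by 3.55, MFA1 by 3.02, ASG7 by nearly as much (percentile 57.9), STE2 by 2.80 and BAR1 by 1.19 (percentile 7.14). The members' median was 3.02, against 2.81 over all genes. With columns centred on the median gene MFA1 turned to -0.25 and BAR1 to -0.89, while the other 5 stayed positive (0.07 to 1.75) and 3 of them, STE6, AGA2 and ASG7, kept at least 2-fold. In plain FPKM the mutant exceeded the wild type between 6.70-fold (BAR1) and 50.9-fold (STE6), from wild-type levels of 0.252 to 2.03 FPKM. The order of the members differed from that with the pseudocount. AGA2 stood at 44.0-fold, ASG7 at 35.9-fold, MFA2 at 26.5-fold, STE2 at 14.6-fold and MFA1 at 11.6-fold.

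**Figure D3:**
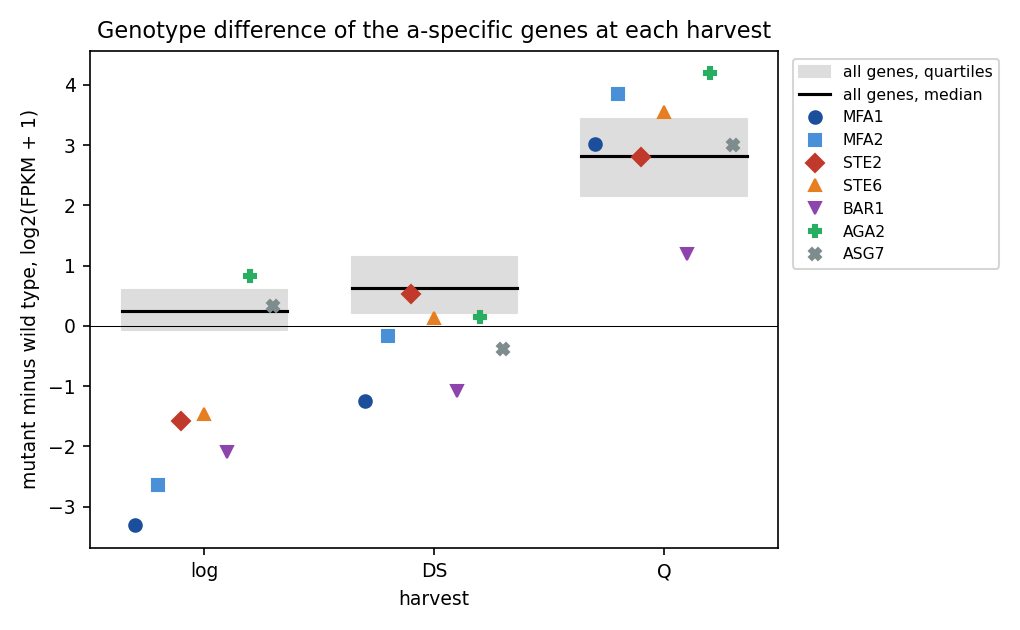
Mutant minus wild type, as log2(FPKM + 1), for each a-specific gene (points) in log, DS and Q cells, with the median (line) and quartiles (grey) of all genes, 1 deposited value per condition. In log cells MFA1, MFA2, BAR1, STE2 and STE6 lie between -3.31 and -1.47, well under the quartiles of all genes; in Q cells all 7 members are above 1.

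As deposited, every member changed less in the mutant than in wild type from log to Q and from DS to Q. The median gene did too, with -1.39 in the mutant and -3.87 in wild type from log to Q. From DS to Q it was at -0.81 and -2.90. From log to DS the medians were -0.52 and -0.85. There AGA2 (-0.71) and ASG7 (-0.64) changed more in the mutant than in wild type (-0.02 and 0.08), and the other members less. From log to DS 3 of 7 members were at least 2-fold lower, BAR1 (-2.45), STE2 (-1.83) and MFA1 (-1.02), against 28.6% of 6362 genes, and none was higher, against 7.54%. MFA2 was nearly level (-0.07, and 0.49 with centred columns). From log to Q 6 of 7 were at least 2-fold lower, against 64.9% of 6396 genes (4.36% were higher), with STE2 at -3.30, BAR1 at -3.12, MFA2 at -2.27, AGA2 at -1.51, STE6 at -1.43 and MFA1 at -1.14. ASG7 was at -0.99, and at 0.32 with centred columns. With centred columns BAR1 (-2.01) and STE2 (-1.96) were at least 2-fold lower and MFA1 was at 0.22; with equal column sums MFA1 (1.05), STE6 (0.72), AGA2 (0.69) and ASG7 (1.13) were all above log. From DS to Q MFA2 (-2.20) and STE2 (-1.47) were at least 2-fold lower, against 40.6% of 6304 genes (2.68% were higher). MFA1 was nearly level as deposited (-0.12) and higher in Q cells with centred columns (0.69).

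The difference between genotypes in these courses, the mutant's change less the wild type's, uses the same columns again. For log to DS it was at least 2-fold and positive in 5 of 7 members, against 22.6% of 6362 genes, and 6.04% were negative and past 2-fold. MFA2 led with 2.48 (percentile 98.4), then STE2 (2.10), MFA1 (2.06), STE6 (1.60) and BAR1 (1.02), while AGA2 (-0.69) and ASG7 (-0.72) were negative. For log to Q all 7 were positive and past 2-fold, as were 91.6% of 6395 genes (0.688% were negative and past 2-fold). MFA2 (6.48) and MFA1 (6.33) ranked 7th and 10th from the top of all 6395 values. These values combine a mutant level below wild type in log cells with one above it in Q cells. The Q part alone was close to the all-gene median of 2.81 for MFA1 (3.02, percentile 58.6). For MFA2 it was 3.85 (percentile 86.9).

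The profiles of the members across the 6 conditions were alike to different degrees. Over the 21 pairs of members, Pearson's r of log2(FPKM + 1) ran from 0.66 (BAR1 and AGA2) to 0.99 (AGA2 and ASG7), with a median of 0.90. These are descriptions over 6 points that share the columns' scale. When each profile was centred on its own mean, STE6 lay closest to the members' mean profile, with a root mean square difference of 0.24, and AGA2 (0.92) and ASG7 (0.94) farthest. Among 5878 other genes with at least 10 FPKM in some condition, the 10 closest to the mean profile were ADE2, YGR001C, RSN1, CYB5, MSN4, YCR090C, YLR099W-A, TAN1, PUB1 and MDE1. Their root mean square differences were 0.28 to 0.43 and their r to the mean profile 0.98 to 0.99. ADE2, an enzyme gene of purine synthesis, was at 155, 33.1 and 1.56 FPKM in wild-type log, DS and Q cells and at 77.1, 44.4 and 14.8 in the mutant. Of the members themselves only STE6 lay closer to the mean than the last of these 10 genes. Each member is part of that mean, and the 10 genes were picked as the closest of 5878, so these distances are not on an equal footing.

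The genes that act with the members in mating were read from lists for a-factor maturation, pheromone signalling, pheromone-induced genes and regulators. Beside their counts in mutant log cells stand the 3.38% of all genes that were at least 2-fold lower, the 10.2% that were higher and the all-gene median of 0.25. In log cells none of the 7 genes that farnesylate, trim or methylate a-factor differed by 2-fold in the mutant (median -0.03). The extremes were RAM2 (-0.44), a farnesyltransferase subunit gene, STE14 (-0.43), the methyltransferase gene, RAM1 (0.34), the other farnesyltransferase subunit gene, and STE23 (0.66), a protease gene. Of 15 genes of the pheromone signalling chain 1 was at least 2-fold lower and 1 higher (median 0.01). The lower gene was SST2 (-1.61), which encodes the regulator that shuts off the G protein, with 57.0 FPKM in wild-type and 18.1 in mutant cells. The higher gene was DIG2 (1.07), an inhibitor of the transcription factor Ste12. STE12 itself was at -0.78 and STE50, an adaptor gene, at 0.83.

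Of 11 pheromone-induced genes that passed 1 FPKM, from 13 listed, 2 were at least 2-fold lower in mutant log cells, PRM4 (-1.81) and PRM2 (-1.05); FIG2 (0.69) and PRM3 (0.35) were highest. AGA1, which encodes the anchor subunit to which Aga2 is bound, had 3.73 FPKM in wild-type and 4.10 in mutant log cells. Of 9 regulators 1 was at least 2-fold higher, YOX1 (1.22), a repressor of Mcm1 targets in the cell cycle; its partner YHP1 was at 0.91, and SIR2 (-0.39) and SIR1 (-0.06) were lowest. MCM1 had 68.0 FPKM in wild-type and 74.3 in mutant log cells. Among alpha-specific genes with a value, YLR040C was at -2.30, STE3 at -1.16, MF(ALPHA)2 at -0.24 and SAG1 at 0.64. HMRA2 and HMLALPHA2, which share sequence and so are uncertain, stood at 15.8 and 13.8 FPKM in wild-type log cells and at 15.7 and 15.9 in mutant log cells. The part of any of these genes in the members' values was not tested.

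**Figure D4:**
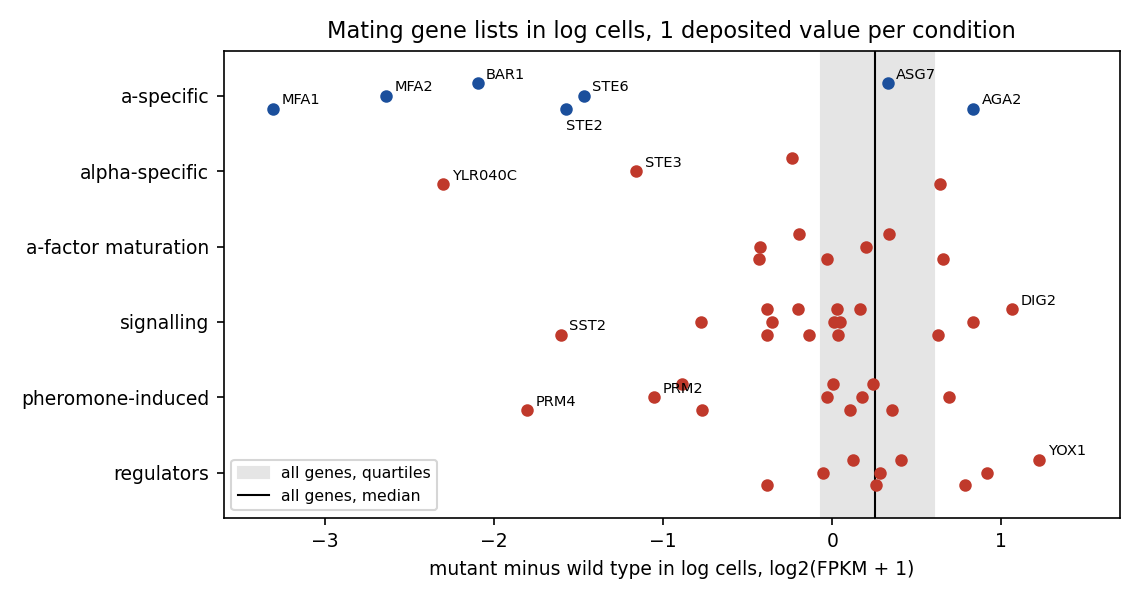
Mutant minus wild type in log cells, as log2(FPKM + 1), for the a-specific genes (blue) and the other mating gene lists (red), 1 point per gene, with the median (line) and quartiles (grey band) of all genes. MFA1 is at -3.31 and AGA2 at 0.83 among the a-specific genes, while all a-factor maturation genes lie between -0.44 and 0.66.

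From wild-type log to DS 4 of 7 maturation genes (median -1.14), 10 of 15 signalling genes (median -1.68), 2 of 11 pheromone-induced genes (median -0.49) and 6 of 9 regulators (median -1.19) were at least 2-fold lower, against 44.2% of all genes (median -0.85). In Q cells all 7 maturation genes (median 2.80), all 15 signalling genes (median 2.83), 10 of 11 pheromone-induced genes (median 1.89) and all 9 regulators (median 2.75) were at least 2-fold higher in the mutant, against 94.5% of all genes (median 2.81).

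Of the 8 other promoters that reached 12 operator letters, none belonged to a gene at least 2-fold lower in mutant log cells, where 3.38% of all genes were, so nothing is read from that count. Their genes were AAC1, FIG2, OST4, YER152C, PDA1, YHB1, YMR175W-A and YNL046W. Mutant log cells differed from wild type by between -0.22 (YMR175W-A) and 1.16 (YER152C) for these genes. AAC1, a mitochondrial ADP/ATP carrier gene with 13 of the 14 letters, had 15.3 FPKM in wild-type and 24.3 in mutant log cells.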

How the data were processed

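RNA was measured by strand-specific sequencing in 14 libraries of 6 groups. The deposited values are log2 FPKM that, per the labels' design text, the authors normalized with external controls to reflect a cell's RNA content, with 1 value per group; how the isolates were pooled is not given. The submitters' processing notes name TopHat2, Cufflinks 2.2.1, Cuffdiff, SAMtools and CASAVA; genome build and gene annotation are not stated there. No source gives the log base. Base 2 was taken because the wild-type log sum of FPKM times kilobases was then 1288200, near the scale that FPKM defines, against 31055485 with base e. Of 6602 rows, 4 with repeated names were left out; 108 mutant DS values that repeat the start of mutant Q, none of a member, were dropped. Genes with at least 1 FPKM in any condition were kept (6524, all members), and changes are differences of log2(FPKM + 1). With 1 value per group no test was possible.

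The members and lists were chosen with earlier results of these data known. All members are named in each comparison. From other lists the 2 highest and 2 lowest changes are, or all of a list of 5 or fewer. The haploid-specific markers are named by their levels. AGA1, MCM1, the mating-type and silent cassette genes and the promoter matches were added after their values were seen. Alternatives were pseudocounts of 0.1 and 10 FPKM, columns centred on the median gene or scaled to 1 sum, and filters of 0 and 10 FPKM. Python 3.11.15, pandas 2.3.3 and numpy 2.4.6 were used, and the scripts were tested on simulated data. Sequences are from RefSeq, build R64; proteins were not used here.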

Additional observations from a re-analysis of the deposited data

Results flagged for a closer look

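For 5 members the genotype difference pointed one way in log cells and the other way in Q cells, by at least 2-fold each time; this difference of differences was not tested, since each condition has 1 deposited value. The mutant's difference from wild type was larger in Q than in log cells by 6.33 on the log2(FPKM + 1) scale for MFA1, 6.48 for MFA2, 4.37 for STE2, 5.02 for STE6 and 3.29 for BAR1. Over all genes 147 of 6395 (2.3%) were at least 2-fold lower in mutant log and at least 2-fold higher in mutant Q cells. In Q cells 94.5% of all genes were at least 2-fold higher in the mutant. The flag therefore largely repeats the log-cell difference, where 3.38% of genes were at least 2-fold lower. With columns centred on the median gene the differences in Q cells were -0.25 for MFA1, 0.91 for MFA2, 0.07 for STE2, 1.75 for STE6 and -0.89 for BAR1, so only STE6 then had opposite directions of at least 2-fold.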

How the results depend on the processing

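No paired analysis was possible because the table holds 1 value per condition and no column per isolate; for the same reason no replicate could be left out. Of 462 member changes recomputed under 6 alternatives, 399 kept their sign and their side of 2-fold and 29 turned sign, 6 of them from at least 2-fold and 23 from less; the rest kept their sign and crossed 2-fold. All 29 came from rescaling the columns, 14 from centring and 15 from equal sums. The log-cell comparison of genotypes kept its 5 lower members under all 6 alternatives, with a median of -1.97 to -1.51, and the wild-type DS and Q comparisons kept their counts of lower members within 1.5 times. Filters on low values changed no member.

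The other counts of members depended on the scale. With columns scaled to the same sum, 2 members were at least 2-fold higher in wild-type DS than log cells (0 as deposited), 1 was lower in mutant DS than log (3), 2 were lower and 2 higher in mutant Q than log (6 and 0), and 0 were lower and 1 higher in mutant Q than DS (2 and 0). With columns centred on the median gene, 2 were lower in mutant Q than log and 1 in mutant Q than DS, and 3 instead of 7 were higher in mutant than wild-type Q cells. Under both scalings 2 members had a log-to-DS difference between genotypes of at least 2-fold below 0 (0 as deposited). A pseudocount of 10 FPKM left 1 lower member in mutant DS (2) and 4 higher in mutant Q (7). Of the changes of at least 2-fold, the sign turned from mutant log to Q for MFA1 (0.22 centred, 1.05 with equal sums) and, with equal sums, for STE6 (0.72), AGA2 (0.69) and the members' median (0.69), and in mutant against wild-type Q for centred MFA1 (-0.25) and BAR1 (-0.89). The cause was not tested beyond the change of scale. Unknown depth limits the wild-type Q values, 5 of 7 of which are below 1 FPKM.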
